A study of Mus musculus with 12 samples.

Results

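The ERV2 repeats other than IAP were 171 of the 347 repeat consensus sequences quantified beside 37366 RefSeq transcripts in mouse zygotes. Members were taken by name: the repeat belongs to the mouse set, its name ends in ERV2, and it does not contain IAP, which set 24 intracisternal A particle repeats of the same class aside. By name, and by the length of the consensus, 143 members are long terminal repeats (LTRs) of 305 to 1950 bases and 28 are internal regions of 2326 to 8574 bases, in 47 subfamilies by name stem. A consensus stands for all genomic copies of its repeat, so a member has no position, and related consensus sequences share bases, so that reads can be split between neighbours such as the RLTR13 variants.

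The study asked what LSM1, a subunit of the LSM1-7 complex that promotes decapping and decay of RNA, does to RNAs of the zygote. Total RNA-seq compared Lsm1_KD zygotes, injected with siRNA against Lsm1, with Ctrl zygotes, injected with scramble siRNA. RNA immunoprecipitation sequencing (RIP-seq) with anti-FLAG M2 affinity gel compared zygotes that received mRNA of LSM1 with a 3XFlag tag (FLAG IP and FLAG Input) with zygotes labelled as given untagged Lsm1 mRNA (Ctrl IP and Ctrl Input). All 6 groups held 2 libraries of pooled B6D2F1 embryos from females of 8 to 10 weeks, collected 18 to 20 h after hCG, and nothing was deleted in any of them. The tagged protein came from injected mRNA on top of the zygote's own LSM1, and the controls of the RIP-seq have IgG in their titles although their treatment field names Lsm1 mRNA.

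ERV2 elements are the class II endogenous retroviruses of the mouse (also called ERVK), which resemble betaretroviruses. A full element has an internal region with gag, pro and pol genes between a pair of LTRs, which hold the promoter and the polyadenylation signal, while most copies in the genome are solitary LTRs left by recombination. In embryonic cells these elements are kept silent by KRAB zinc finger proteins with TRIM28, SETDB1 and H3K9me3, and by DNA methylation, and some of their LTRs act as promoters or enhancers in oocytes, early embryos and placenta.

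The libraries held 4636492 and 11095477 estimated counts in Lsm1_KD zygotes, 13968315 and 7391089 in Ctrl zygotes, and 9865512 to 31586450 in RIP-seq. Lsm1 itself had 61.7 and 69.7 CPM (counts scaled to the library total) in Lsm1_KD zygotes against 152 and 144 CPM in Ctrl zygotes. It had 9931 and 14731 CPM in FLAG Input, against 16.3 and 16.1 CPM in Ctrl Input, so no excess Lsm1 mRNA was measured in the libraries labelled as injected with it. The pulldowns held 11125 and 121440 CPM of Lsm1 in FLAG IP replicates 1 and 2, against 24.6 and 20.2 CPM in Ctrl IP, so the FLAG IP libraries differed widely in it and replicate 1 was close to its own input. All 12 zygote and oocyte markers were above 1 CPM in at least 1 library and summed to 3035 to 12896 CPM, while 8 cumulus and granulosa markers summed to 0.137 to 33.1 CPM, with the highest sum in FLAG IP replicate 1. That library stood apart: its scaling factor by the trimmed mean of M-values (TMM) was 1.87, against 0.87 to 1.02 in the other RIP-seq libraries. The medians and the fitted member values of FLAG IP over FLAG Input are given with and without it.

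Members took a small share of the RNA. They held 0.0758% (95% exact binomial interval 0.0733 to 0.0784) and 0.0479% (0.0466 to 0.0492) of all counts in Lsm1_KD replicates 1 and 2. The shares were 0.0437% (0.0426 to 0.0448) and 0.0455% (0.0439 to 0.0470) in Ctrl replicates 1 and 2. In RIP-seq the share was 1.57% and 0.202% in FLAG IP, against 0.0600% and 0.0527% in FLAG Input, and 0.190% and 0.106% in Ctrl IP, against 0.0465% and 0.0400% in Ctrl Input. These intervals cover counting error only. Of all repeat counts, members made up 50.6% and 41.7% in Lsm1_KD zygotes and 41.6% and 44.5% in Ctrl zygotes, but 12.4% and 7.68% in FLAG IP, 23.7% and 15.9% in FLAG Input, 9.71% and 9.84% in Ctrl IP and 24.1% and 27.1% in Ctrl Input. Thus members were a larger share of all counts and a smaller share of the repeats in each IP than in its Input, in values that did not overlap. With 2 libraries a group the exact permutation test cannot go below p = 0.333 (two-sided), so no single sum is called here.

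In the RNA-seq, 74 members were above 0 in all 4 libraries and 34 were at 0 in all of them. In RIP-seq, 134 were above 0 in all 8 libraries and 1 was at 0 in all of them, and 70 members were above 0 in all 12. Per length, the most abundant member in RNA-seq was the LTR BGLII, with 335 ± 112 TPM, the authors' length-normalized abundance, in Lsm1_KD zygotes and 265 ± 5.59 TPM in Ctrl zygotes (SD, n = 2). The LTR RLTR27 followed in Ctrl zygotes and RLTR8 in Lsm1_KD zygotes. RLTR8 had 246 ± 35.4 TPM in Lsm1_KD zygotes and 97.0 ± 28.7 TPM in Ctrl zygotes, whereas RLTR27 had 156 ± 75.5 and 199 ± 78.1 TPM, so that BGLII and RLTR27 in Ctrl zygotes, and BGLII and RLTR8 in Lsm1_KD zygotes, differed by less than the larger SD. BGLII led in Ctrl Input as well, with 266 ± 21.7 TPM. By counts, which are not per length, the internal regions ERV2-9C-I, MMERVK10C, ERV2-1-I and ERV2-5-I carried the most reads in the RNA-seq.

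The RNA-seq test covered 51 of the 171 members, 35 LTRs and 16 internal regions, beside 11335 genes and repeats in all. The other 120 members were too low, at most 19 counts in any library. Features were compared by edgeR's quasi-likelihood test, with p-values adjusted by Benjamini-Hochberg over all of them, and a member was called where the log2 fold change exceeded 1 in size and the adjusted p was under 0.05. A member can pass the abundance filter through its higher group alone, so the counts and medians over tested members describe only those members. Of the 51, 35 had at least 10 counts in both Ctrl libraries, and the 3 calls were among them.

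In Lsm1_KD zygotes, 3 of the 51 members rose and 0 fell, while 5.40% of all features tested rose and 2.75% fell, so the share of members called was near that of all features. The 3 were the internal region ERV2-9C-I and the LTRs RLTR8 and ERVB4_2B-LTR. At an unadjusted p under 0.05, 6 members were higher (14.2% of all features) and 1 was lower (12.9%). Fewer cells with an RNA and less RNA per cell cannot be told apart in these pooled samples. Markers of cumulus and granulosa cells and of sperm summed higher in Lsm1_KD zygotes, at low levels, while those of blood did not. The 8 cumulus and granulosa markers, 5 of them at 0 in all 4 libraries, summed to 1.73 and 3.24 CPM in Lsm1_KD zygotes against 0.43 and 0.14 CPM in Ctrl zygotes. The 7 sperm markers, 5 of them at 0 including Prm1, summed to 7.55 and 11.4 CPM in Lsm1_KD zygotes against 3.15 and 3.11 CPM in Ctrl zygotes, and 4 blood markers to 0 and 0.54 against 0.29 and 6.90 CPM. Their part in the differences was not tested.

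ERV2-9C-I, an internal region, had 270 and 117 normalized CPM in Lsm1_KD zygotes against 24.99 and 67.8 normalized CPM in Ctrl zygotes. The groups did not overlap, although the libraries of each group differed by over 2 times, and the member alone took 34.5% and 23.9% of all ERV2 counts other than IAP in Lsm1_KD zygotes. The difference was called (log2 fold change 2.07, standard error 0.47, adjusted p = 0.022, edgeR). It stayed called when any one of the 4 libraries was left out, at 1.32 to 2.92, but lost the call in DESeq2 (adjusted p = 0.082), on single transcripts (0.22) and in all 3 limma fits of log2 TPM (0.13, 0.13 and 0.21).

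RLTR8 had 25.8 and 21.6 normalized CPM in Lsm1_KD zygotes against 9.03 and 6.61 in Ctrl zygotes (log2 fold change 1.59 with a standard error of 0.39, adjusted p = 0.031, edgeR). ERVB4_2B-LTR had 7.34 and 9.56 normalized CPM in Lsm1_KD zygotes against 1.48 and 1.65 in Ctrl zygotes (log2 fold change 2.43 with a standard error of 0.67, adjusted p = 0.043, edgeR). For both LTRs all Lsm1_KD values lay above all Ctrl values by more than the spread within groups. In estimated counts, RLTR8 had 116 and 235 in Lsm1_KD zygotes against 134 and 48 in Ctrl zygotes, and ERVB4_2B-LTR 33 and 104 against 22.5 and 12. ERVB4_2B-LTR lost its call whichever of the 4 libraries was left out (adjusted p 0.063 to 0.25), and RLTR8 lost it without Lsm1_KD replicate 1 (0.089), Lsm1_KD replicate 2 (0.062) or Ctrl replicate 2 (0.10).

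**Figure D1:**
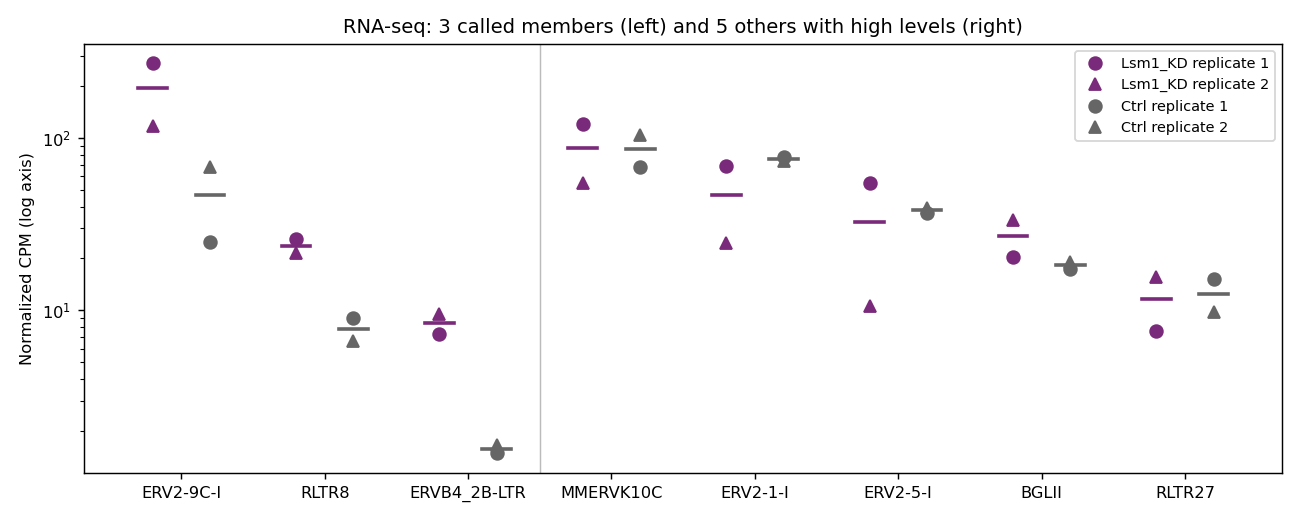
Normalized CPM (log axis) of 8 members in the RNA-seq, with 1 point for each library (circle, replicate 1; triangle, replicate 2) and a bar at the group mean, Lsm1_KD left of Ctrl. ERV2-9C-I, RLTR8 and ERVB4_2B-LTR lie higher in both Lsm1_KD libraries, while the 3 internal regions MMERVK10C, ERV2-1-I and ERV2-5-I spread widely between the Lsm1_KD libraries.

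Other members moved without passing the test. MYSERV16_I, an internal region, had 3.78 and 3.95 normalized CPM in Lsm1_KD zygotes against 0.54 and 0.41 in Ctrl zygotes (log2 fold change 2.97 with a standard error of 1.02, adjusted p = 0.089, edgeR). ERVB7_1-LTR had 15.8 and 9.56 against 4.31 and 4.54 normalized CPM (log2 fold change 1.505, adjusted p = 0.089, edgeR). RLTR9E, of an LTR family that pluripotency factors bind in mouse embryonic stem cells, had 1.56 and 3.68 against 0.61 and 0.55 (log2 fold change 2.17, adjusted p = 0.23). In these 3 members the groups did not overlap. In all, 24 of the 51 members and 29.3% of all features lay higher in both Lsm1_KD libraries than in both Ctrl libraries. MYSERV16_I and RLTR9E had at most 9 counts in a Ctrl library, whereas ERVB7_1-LTR had 71.5 and 104 counts in Lsm1_KD zygotes against 63.6 and 32.9 in Ctrl zygotes.

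The lowest fold changes were those of the internal regions ERV2-10-I and ERV2-2-I and of RLTR10D2. ERV2-10-I had 1.56 and 0.37 normalized CPM in Lsm1_KD zygotes against 3.97 and 3.99 in Ctrl zygotes (log2 fold change -2.15, adjusted p = 0.21, edgeR). ERV2-2-I had 2.89 and 2.57 against 13.8 and 3.86 (log2 fold change -1.71, adjusted p = 0.15). RLTR10D2, from the LTR family that flanks MMERVK10C, some copies of which act as enhancers in male meiosis, had 0.89 and 1.10 against 2.69 and 3.86 (log2 fold change -1.68, adjusted p = 0.30). None of these was called. All 3 sets of values lay lower in both Lsm1_KD libraries, as did those of 11 of the 51 members and 28.6% of all features.

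Another 3 abundant internal regions differed more between the Lsm1_KD libraries than between the groups, and none of them was called in the fit of all libraries. MMERVK10C, one of the ERVs that become active when TRIM28 or SETDB1 is lost in mouse cells, had 120 and 54.8 normalized CPM in Lsm1_KD zygotes against 67.5 and 104 in Ctrl zygotes. ERV2-5-I had 54.7 and 10.6 in Lsm1_KD zygotes against 36.8 and 39.4 in Ctrl zygotes. ERV2-1-I had 68.3 and 24.7 against 77.6 and 73.8 (log2 fold change -0.72, standard error 0.39, adjusted p = 0.27, edgeR). In each, Lsm1_KD replicate 1 was over 2 times replicate 2, and without replicate 1 ERV2-1-I (-1.63) and ERV2-5-I (-1.87) were called lower.

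LTRs and internal regions gave different medians. Among the tested members the median log2 fold change in Lsm1_KD zygotes was 0.86 for LTRs, with 27 of 35 above 0, and -0.35 for internal regions, with 7 of 16 above 0, against 0.01 over all features. Among the members with at least 10 counts in both Ctrl libraries the medians were 0.73 for 21 LTRs, with 16 above 0, and -0.48 for 14 internal regions, with 5 above 0. The size moved with the processing: the median of LTRs exceeded that of internal regions by 1.21, but by 0.67 in limma on log2(TPM + 1) and by 0.41 there without a filter, and the median of internal regions was -0.98 without Lsm1_KD replicate 1 and -0.01 without Lsm1_KD replicate 2. Summed LTR counts were 211 and 238 CPM in Lsm1_KD zygotes, above the 140 and 126 CPM of Ctrl zygotes. Summed internal regions were 547 and 241 CPM in Lsm1_KD zygotes and 297 and 329 CPM in Ctrl zygotes, and without ERV2-9C-I 285 and 127 CPM in Lsm1_KD zygotes and 270 and 262 CPM in Ctrl zygotes. So the summed LTRs separated the groups and the summed internal regions did not.

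The same held within elements. For 6 elements both an LTR and an internal region of the same name were tested, and in all 6 the LTR had the higher log2 fold change, by a median of 1.25. The difference was 2.63 for ERVB4_1B, 1.96 for ERVB7_1, 1.58 for ERVB4_2, 0.91 for ERV2-5, 0.71 for ERV2-9 and 0.45 for MMERVK10D3. For ERVB4_1B, the LTR had 4.90 and 4.87 normalized CPM in Lsm1_KD zygotes against 1.55 and 1.38 in Ctrl zygotes, whereas the internal region had 10.9 and 5.70 against 16.6 and 13.9. ERV2-9C, whose internal region was called higher, is not among the 6. ERV2-9C-LTR had 0 CPM in every group and was not tested. The 6 elements share their 4 libraries and are no replicates of each other.

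Transcript length moved with this contrast. Among genes, the median log2 fold change in Lsm1_KD zygotes was 1.36 for 90 genes with transcripts under 500 bases and 0.87 for 703 genes from 500 to under 1000 bases, but -0.04 for 4502 genes from 2000 to under 4000 bases and -0.11 for 3411 longer ones. The members with a consensus under 500 bases had a median of 0.69 (16 members), those from 500 to under 1000 bases 0.96 (17 members) and those of 4000 bases or more -0.45 (15 members). Abundance moved with it as well: genes under 1 normalized CPM in Ctrl zygotes had a median of 1.62 (525 genes) against 1.49 for 8 members, and genes from 1 to 10 CPM 0.17 (3963 genes) against 0.67 for 36 members. The length of a consensus is not that of the RNA read from it, and the part of length and abundance in the difference between LTRs and internal regions was not tested.

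**Figure D2:**
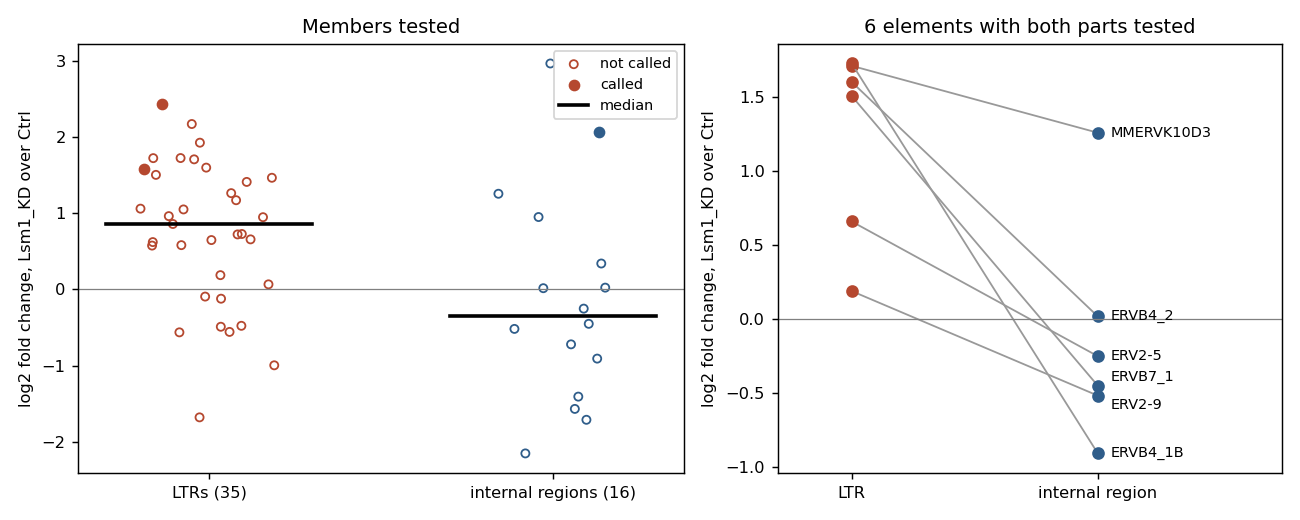
Left, log2 fold change of Lsm1_KD over Ctrl for the 51 tested members (filled points, called; bars, medians of 0.86 for LTRs and -0.35 for internal regions). Right, the 6 elements of which both parts were tested, joined by lines, each with its LTR above its internal region.

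The 3 subfamilies with 5 or more tested members each held values on both sides of 0. The 7 tested ERVB4 members had a median log2 fold change of 1.60 and spanned -0.91 to 2.43, and the 7 tested RLTR13 members, a family with LTR enhancers in mouse trophoblast stem cells, had a median of 1.06 and spanned -1.0 to 1.73. MMERVK10C and its RLTR10 LTRs (5 tested) had a median of 0.02 and spanned -1.68 to 0.73. Only ERVB4 among these 3 held a call. Of the subfamilies with 2 tested members, ERVB2 (log2 fold changes of -1.57 and -1.41), MMERVK10D (1.26 and 1.71) and RLTR9 (0.72 and 2.17) had 1 sign. So had BGLII (0.58 and 0.86), MMERVK9 (0.34 and 0.95) and RMER17 (0.07 and 1.26). The signs differed in ERV2-5 (-0.25 and 0.66) and ERVB7 (-0.45 and 1.505), and none of these members was called.

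**Figure D3:**
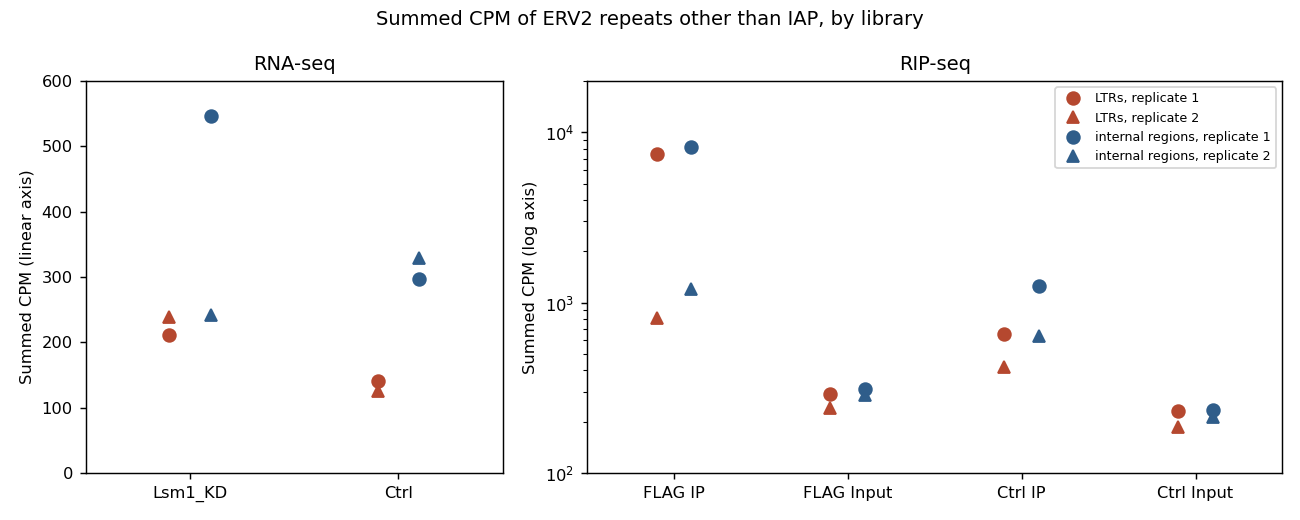
Summed CPM of LTRs and of internal regions in each library (circle, replicate 1; triangle, replicate 2), on a linear axis for RNA-seq and a log axis for RIP-seq. The LTR sums of the Lsm1_KD libraries (211 and 238) lie above those of the Ctrl libraries (140 and 126), and FLAG IP replicate 1 lies above all other RIP-seq libraries for both parts.

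The RIP-seq test covered 159 of the 171 members, 132 LTRs and 27 internal regions, among 18972 genes and repeats, in 1 edgeR fit of 8 libraries. The RIP-seq libraries were made with another kit than the RNA-seq libraries, so levels are not compared between the experiments. ERV2-9C-I, for example, had 1.07 to 1.49 normalized CPM in the 4 Input libraries.

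The inputs asked whether tagged LSM1 from injected mRNA changed members before any pulldown. In FLAG Input over Ctrl Input, 0 of 159 members were called, as were 0% of all features, and at an unadjusted p under 0.05 edgeR gave 2 members higher (0.880% of all features) and 0 lower (0.0474%). DESeq2 also called 0 members, with 4 higher at an unadjusted p under 0.05. The median log2 fold change of the tested members was 0.60, with 125 above 0 and 32 below, against 0.02 over all features. Other repeats lay above 0 as well, at a median of 0.74 for IAP and 0.84 for the repeats outside ERV2.

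ERV2-4-I had the smallest p of the members in the inputs, with 1.49 and 1.30 normalized CPM in FLAG Input against 0.28 and 0.53 in Ctrl Input (log2 fold change 1.77, adjusted p = 1.0, edgeR). MLTR25A had 1.32 and 1.99 against 0.53 and 0.67 (log2 fold change 1.46, adjusted p = 1.0). Values of 72 members were higher in both FLAG Input libraries than in both Ctrl Input libraries and 4 were lower, against 18.3% and 15.9% of all features.

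In FLAG IP over FLAG Input, members were higher nearly throughout. Of 159 tested, 126 rose and 0 fell, against 20.9% of all features that rose and 5.11% that fell, and the median log2 fold change of the tested members was 4.04 against 0.49 over all features. At an unadjusted p under 0.05, 144 members were higher (32.5% of all features) and 0 lower (14.1%). Of the members tested, 106 had at least 10 counts in both FLAG Input libraries and did not need the IP to be measured. Of these 95 rose, with a median of 3.58, and without FLAG IP replicate 1 their median was 2.01. Of 132 LTRs 100 were called, with a median of 4.05 over those tested, and of 27 internal regions 26 were called, with a median of 3.98. Leaving out FLAG IP replicate 1, the medians were 2.15 for 133 LTRs and 2.41 for 27 internal regions.

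MMERVK10C had the most reads in both FLAG IP libraries, 1701 and 541 normalized CPM in FLAG IP against 57.3 and 84.9 in FLAG Input (log2 fold change 3.98, standard error 0.71, adjusted p = 0.0055, edgeR). RLTR10B2, one of the RLTR10 LTRs, had 95.1 and 23.4 against 3.44 and 5.09 (log2 fold change 3.80, adjusted p = 0.0040). RLTRETN, the LTR of the ETn elements, which lack genes of their own but still transpose in the mouse, had 70.9 and 16.6 against 6.21 and 6.96 (log2 fold change 2.73, adjusted p = 0.0096). In each, FLAG IP replicate 1 was about 3 or 4 times replicate 2, and both lay above the inputs. All 3 stayed called without FLAG IP replicate 1, at 2.89 for MMERVK10C, 2.42 for RLTR10B2 and 1.30 for RLTRETN.

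Other abundant members had smaller fold changes. ERV2-5-I had 398 and 211 normalized CPM in FLAG IP against 71.9 and 56.0 in FLAG Input (log2 fold change 2.25, adjusted p = 0.015, edgeR). ERV2-1-I had 480 and 206 against 127 and 94.3 (log2 fold change 1.63, adjusted p = 0.047). The LTR RMER6C had 367 and 86.5 against 45.5 and 31.8 (log2 fold change 2.55, adjusted p = 0.015). All FLAG IP values here lay above the inputs. Without FLAG IP replicate 1, ERV2-5-I (1.68) and RMER6C (1.12) stayed called and ERV2-1-I was not (0.86, adjusted p = 0.085, edgeR).

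The lowest value was that of an abundant LTR. BGLII, the most abundant LTR per length, had 41.1 and 25.2 normalized CPM in FLAG IP against 43.1 and 29.6 in FLAG Input (log2 fold change -0.13, standard error 0.34, adjusted p = 0.76, edgeR), and was the only tested member with a value below 0. It was not raised in the control pulldown either. Its log2 ratio of IP over Input (0.5 CPM added) was -0.14 and -0.30 in Ctrl replicates 1 and 2, against 0.94 and -0.24 in FLAG replicates 1 and 2. RLTR8, which had risen in Lsm1_KD zygotes, had 21.2 and 5.98 in FLAG IP against 8.76 and 5.01 in FLAG Input (log2 fold change 0.99, adjusted p = 0.18). With FLAG IP replicate 1 left out, BGLII was at -0.56 (adjusted p = 0.17) and RLTR8 at -0.24 (adjusted p = 0.71), so the direction of RLTR8 turned. The other 2 members called in Lsm1_KD zygotes were called in FLAG IP too, among the 126 of 159. ERV2-9C-I stayed called without FLAG IP replicate 1 (1.996) and ERVB4_2B-LTR did not (0.58).

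The highest fitted values belonged to members with almost no counts in FLAG Input. MLTR18D had 228 and 24 counts in FLAG IP against 0 and 1 in FLAG Input, RLTR12E had 165 and 37 against 0 and 2, and the internal region MYSERV had 259 and 17 against 0 and 3. Their inputs lie at or under the level of 3 counts, so no fold change is given for them.

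The size of these differences rested on FLAG IP replicate 1. The log2 ratio of CPM (with 0.5 CPM added) between IP and Input of the same number had a median over the 159 members of 4.75 in FLAG replicate 1 and 1.54 in FLAG replicate 2, against 1.42 and 1.04 in Ctrl replicates 1 and 2. Without FLAG IP replicate 1 the median log2 fold change of the 160 tested members was 2.15, against 0.10 over all features. Without FLAG IP replicate 2 the median of 168 members was 4.77, against 1.09 over all features. Leaving out either leaves FLAG IP with 1 library, which the fit takes to vary like the other groups. Without FLAG Input replicate 1 the median of members was 4.01, against 0.91 over all features. Without FLAG Input replicate 2 it was 4.02, against 0.89.

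**Figure D4:**
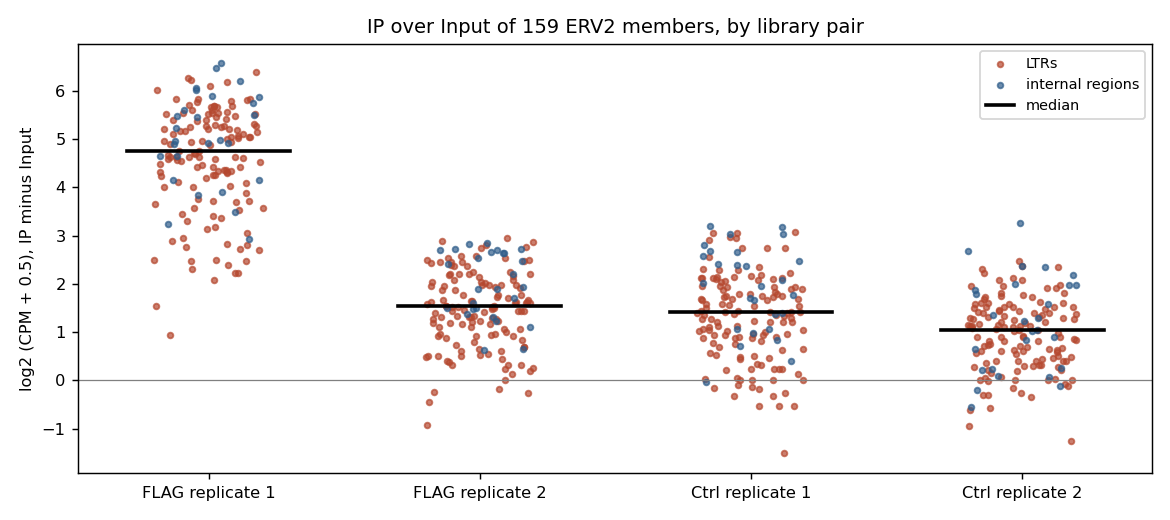
Log2 of CPM + 0.5 in IP minus the same in Input for the 159 tested members, with 1 column of points for each pair of libraries of the same number and a bar at the median. FLAG replicate 1 (median 4.75) lies above the other 3 pairs, whose medians are 1.54, 1.42 and 1.04.

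Members were higher in the control pulldown as well. In Ctrl IP over Ctrl Input, 9 of 159 members rose and 0 fell, against 2.12% of all features that rose and 0.00527% that fell, and the median log2 fold change of the tested members was 1.86 against 0.12 over all features. At an unadjusted p under 0.05, 77 members were higher (16.3% of all features) and 0 lower (0.733%). Of the 80 members with at least 10 counts in both Ctrl Input libraries, 6 rose, and 118 of 159 members were higher in both Ctrl IP libraries than in both inputs (33.4% of all features).

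The 9 were 5 internal regions and 4 LTRs. ERV2-5-I, the most abundant, had 303 and 138 normalized CPM in Ctrl IP against 41.9 and 42.7 in Ctrl Input (log2 fold change 2.38, standard error 0.53, adjusted p = 0.041, edgeR). ERV2-3-I had 12.4 and 15.7 against 1.24 and 1.25 (log2 fold change 3.49, adjusted p = 0.012), and ERV2-4-I had 6.17 and 6.0 against 0.28 and 0.53 (log2 fold change 3.89, adjusted p = 0.010). ERV2-9-I had 17.3 and 10.5 against 1.70 and 2.45, and ERV2-10-I 13.1 and 6.73 against 1.88 and 1.43, with log2 fold changes of 2.74 and 2.57. All 5 internal regions had each Ctrl IP value at least 3 times each input value.

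The 4 LTRs were MLTR31B, MLTR31FA, RLTR13B2 and RMER17C. RMER17C had 16.5 and 13.3 normalized CPM in Ctrl IP against 1.77 and 2.32 in Ctrl Input (log2 fold change 2.86, adjusted p = 0.027, edgeR), and RLTR13B2 had 16.7 and 6.23 against 1.81 and 1.65 (2.72, adjusted p = 0.037). MLTR31B had 3.08 and 2.72 against 0.35 and 0.45 (2.85, adjusted p = 0.046, edgeR). MLTR31FA had 3.86 and 2.50 against 0.18 and 0.13 (4.28, adjusted p = 0.040, edgeR). The inputs of MLTR31FA lie near the level of 3 counts, so the size of its fold change is uncertain. Of the 9 calls, 3 were of members with under 10 counts in a Ctrl Input library. MMERVK10C, with 393 and 256 normalized CPM in Ctrl IP against 63.8 and 53.9 in Ctrl Input, was not called (log2 fold change 2.46, adjusted p = 0.082).

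This count depended on the fit. It was 37 in DESeq2, 61 in a fit of the Ctrl RIP-seq libraries alone, and 56 with IP and Input of the same number as a block. Calls over all features rose too, from 403 higher in the main fit to 1343, 2119 and 1436 in these settings. With library totals in place of TMM factors 0 members and 131 features were called higher, and no setting called a member lower.

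Low abundance in the input moved with the ratio in both arms. Among genes under 1 normalized CPM in the input the median log2 fold change was 3.75 in FLAG IP (6196 genes) and 2.33 in Ctrl IP (6474 genes), near the 4.32 (87 members) and 2.25 (98 members) of members at that level. From 1 to 10 CPM genes had medians of 0.84 and 0.23, below the 3.49 (62 members) and 1.32 (52 members) of members, and from 10 to 100 CPM genes were at -0.62 and -0.19, below the 2.25 and 0.75 of 9 members in each arm. The part of abundance in the IP values was not tested.

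**Figure D5:**
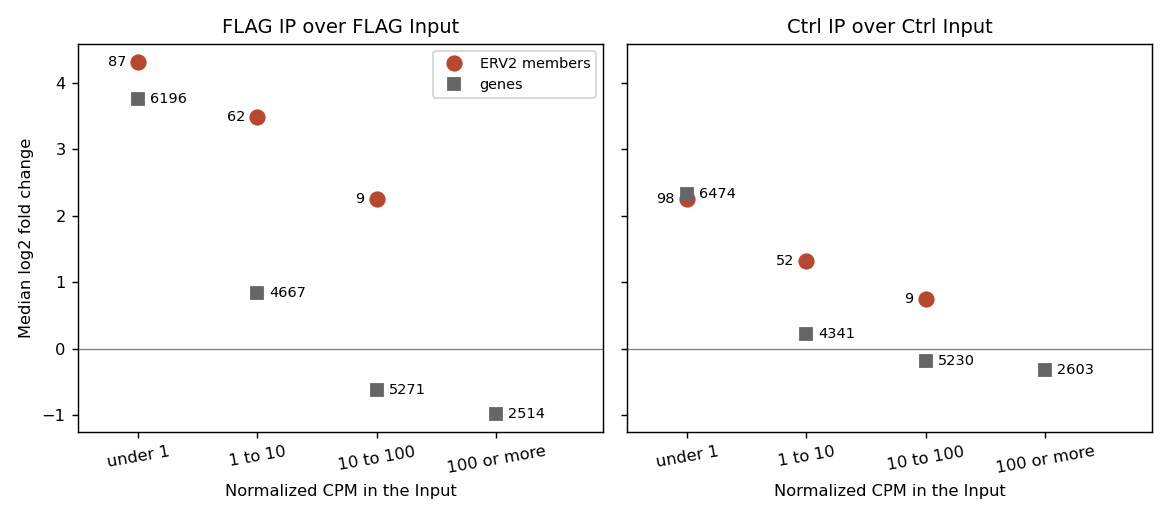
Median log2 fold change of IP over Input against normalized CPM in the Input, for ERV2 members (circles) and genes (squares), with the number of features beside each; classes with fewer than 5 members are not drawn for members. Members lie close to genes under 1 CPM and above them from 1 to 100 CPM, in FLAG IP (left) and Ctrl IP (right).

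The test of binding to the tagged protein is the difference between both ratios, FLAG IP over FLAG Input against Ctrl IP over Ctrl Input. Of 159 members, edgeR called 0, as it did for 0% of all features, and DESeq2 called 0. At an unadjusted p under 0.05, 42 members were higher and 0 lower in edgeR, against 3.99% and 1.26% of all features, and DESeq2 gave 48 higher. The median of the tested members was 1.82 against 0.02 over all features. Without FLAG IP replicate 1 the median was 0.32, with 99 members above 0 and 61 below, against -0.11 over all features. Without FLAG IP replicate 2 the median was 2.58, against 0.33 over all features. Here too a single FLAG IP library remains, whose spread is taken from the other groups. These fits carry no replicate check of FLAG IP.

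By library, FLAG replicate 1 had a higher ratio than both Ctrl pairs for all 159 tested members. FLAG replicate 2 lay above both Ctrl pairs for 81, between them for 57 and below both for 21. These ratios use CPM without TMM factors. With library totals the difference of ratios had a median of 0.50 over all features, against 0.02 with TMM. The order of the pairs was not computed over all features, so these numbers are not read as particular to members. MMERVK10C differed by 1.52 on the log2 scale (standard error 0.90, adjusted p = 0.79, edgeR). RLTR13B3, picked after its values were seen, had 27.5 and 5.98 normalized CPM in FLAG IP against 0.68 and 1.02 in FLAG Input. It had 0 and 0.78 in Ctrl IP against 1.03 and 1.20 in Ctrl Input. Its difference was 5.68 (standard error 1.43, adjusted p = 0.79, edgeR) and was not called. With Ctrl IP replicate 1 at 0, the size of this difference is uncertain. It was called, at 5.76 (adjusted p = 0.0036, edgeR), with IP and Input of the same number as a block. That fit called 4 of 18972 features higher and 6 lower, and its pairing was assumed.

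The genes that silence ERVs in mouse cells were read from a list of 37, all tested. In Lsm1_KD zygotes 3 were higher and 1 lower at an adjusted p under 0.05 (6.45% and 4.56% of all features), with a median of -0.04. The shares of the list were thus near those of all features. Mphosph8, a subunit of the HUSH silencing complex, had 2450 and 3025 normalized CPM in Lsm1_KD zygotes against 1389 and 1131 in Ctrl zygotes (log2 fold change 1.12, adjusted p = 0.0086, edgeR). Cbx1, which codes for the heterochromatin protein HP1β, had 144 and 192 against 90.1 and 67.8 (1.09, adjusted p = 0.020). The study, however, counted this gene among those that rarely changed in its RNA-seq, and its qPCR of Lsm1_KD zygotes found no significant difference. Hdac1, a histone deacetylase, fell to 9.12 and 6.34 in Lsm1_KD zygotes, against 42.5 and 83.7 in Ctrl zygotes (-3.05, adjusted p = 0.0021).

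Trim28 (355 and 314 against 205 and 368 normalized CPM) and Setdb1 (153 and 193 against 204 and 224), the core of KRAB zinc finger silencing, did not pass the test, with adjusted p values of 0.64 and 0.38 in edgeR. In FLAG IP over FLAG Input 3 genes of the list were higher and 1 lower (21.0% and 5.48% of all features) with a median of -0.67, and without FLAG IP replicate 1 there were 7 higher and 8 lower. The 3 were Cbx3, Hdac1 and Yy1, and the other was Dnmt3l, the cofactor of de novo DNA methylation in oocytes. In the inputs, in Ctrl IP over Ctrl Input and in the difference of ratios, 0 genes of the list passed.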

How the data were processed

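The authors deposited 1 Salmon table per library with an estimated count and a TPM value for each RefSeq transcript of mm10 and each Repbase consensus. The study's methods name Salmon v0.8.2; trimming was by Trimmomatic in the labels but by Cutadapt in the methods, and the labels place the siRNA in zygotes while the study's scheme places it in oocytes. Estimated counts were summed by gene symbol (37072 of 37366 transcripts matched), rounded, filtered with filterByExpr and fitted with edgeR 4.0.16 (R 4.3.3). The fits had no covariates and were separate for the 4 RNA-seq and the 8 RIP-seq libraries. The method was first run on simulated counts, which had less spread between libraries than was fitted here. That run therefore does not show how the method performs at the spread of these data. DESeq2 1.42.0, limma 3.58.1 on log2(TPM + 1), single transcripts, other scalings, effective lengths, left-out libraries and replicate blocks were alternatives. Normalized CPM use TMM factors. Whether the quantification used strand is not given in the sources used here.

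The members and the gene lists were chosen with earlier results of these data known. Members to name were those called in any comparison, the 8 highest by TPM in each experiment, and the 3 highest and lowest fold changes. The text gives only some of them. As 126 were called in FLAG IP, those are given by counts and examples. Members with few counts are left out. So are others, such as RLTR9D, RLTR10F and BGLII_Mus of the highest by TPM, and RLTR34 and RLTR50B of the lowest fold changes. IP and Input of 1 number were taken to share a lysate, since the input is part of the lysate in the study's methods: their replicate differences correlated at 0.14 (FLAG) and 0.11 (Ctrl), but so did those of FLAG IP and Ctrl IP (0.21) and of the Inputs (0.10), which share no lysate, so the correlations do not show the pairing. The replicates are separate samples whose cultures the labels do not describe, so p-values measure only the spread between them.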

Additional observations from a re-analysis of the deposited data

Results flagged for a closer look

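RLTR13B3, an LTR of the RLTR13 family, moved in opposite directions in the arms of the RIP-seq. Its IP over Input log2 ratio (0.5 CPM added) was 5.51 and 2.04 in FLAG replicates 1 and 2 and -1.51 and -0.35 in Ctrl replicates 1 and 2, and its counts were 504 and 73.3 in FLAG IP, 16.2 and 24.9 in FLAG Input, 0 and 13.6 in Ctrl IP and 29.3 and 26.9 in Ctrl Input. The fitted difference of 5.68 did not pass the test over all features (adjusted p = 0.79, edgeR), and the order of the arms was not tested otherwise. It was the only one of the 159 tested members whose ratios had opposite signs in this way, and it was singled out after its values were seen.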

How the results depend on the processing

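The 32 fitted values of single members in the report were recomputed under up to 19 alternatives. Of 562 values, 419 kept their direction and their side of the threshold, 122 lost a call, 16 gained one and 5 changed sign. BGLII in FLAG IP over FLAG Input changed to 0.59 with library totals, 0.029 on single transcripts, 0.17 without FLAG Input replicate 1 and 0.17 without FLAG IP replicate 2, and lay at -0.56 to 0.17 without each library. RLTR8 there changed to -0.24 without FLAG IP replicate 1, and lay at -0.24 to 1.62 without each library. Library totals in place of TMM factors gave all features a median of 1.17, against 0.49 with TMM, in FLAG IP over FLAG Input.

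In Lsm1_KD over Ctrl the members called higher were 3, against 0 by limma without a filter, 0 on single transcripts, 1 with the replicate block and 5 with the block crossed, an alternative added after the replicate differences correlated at -0.17; those called lower were 0, against 1 by limma on log2(TPM + 1) and 1 by limma on log2(TPM + 0.1). Leaving out each library gave 1 to 3 higher and 0 to 2 lower. The LTR lay above the internal region in 5 or 6 of 6 elements in every alternative.

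In FLAG IP over FLAG Input the members called higher were 126, against 39 by limma on log2(TPM + 1), 76 with + 0.1, 8 without a filter and 0 on single transcripts, and 41 to 153 without each library. The median was 2.72 by limma on log2(TPM + 1), 2.69 without a filter, and 2.15 to 4.77 without each library. In Ctrl IP over Ctrl Input they were 9, against 59 without the count filter, 37 by DESeq2, 56 with the replicate block, 61 in the arm alone, 0 with library totals, 0 by limma in all 3 forms (0 with + 1, 0 with + 0.1, 0 without a filter), 0 on single transcripts, and 1 to 75 without each library. In the difference of ratios they were 0, against 6 without the filter, 1 with the replicate block, and 0 to 97 without each library, with a median of 0.32 to 2.58. The block changed no other count of members by over 1.5 times.

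For the silencing genes in Lsm1_KD over Ctrl, 3 higher became 0 in all limma forms (0 with + 1, 0 with + 0.1, 0 without a filter) and 1 with the replicate block, and 2 to 3 without each library. The 1 lower became 3 without the filter, 3 by DESeq2, 0 by limma without a filter, 4 with the block crossed and 1 to 2 without each library. In FLAG IP over FLAG Input, 3 higher became 5 with library totals, 1 by limma, 1 with + 0.1, 0 without its filter, 1 in the arm alone and 0 to 7 without each library. The 1 lower became 2 without the filter, 2 with DESeq2's size factors, 9 with library totals, 9 by DESeq2, 14 by limma, 14 with + 0.1, 13 without its filter, 2 with the replicate block, 0 in the arm alone and 0 to 28 without each library. In Ctrl IP over Ctrl Input, 0 became 1 higher and 2 lower in the arm alone, and 0 to 1 higher and 0 to 6 lower without each library, and in the difference of ratios 0 to 26 were lower without each library.

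The cause of these changes was not tested. The 2 libraries a group, few counts for most LTRs and reads shared between similar consensus sequences limit all values. Members at 0 in both inputs have no measurable fold: with the 7 in Ctrl Input set to the bound that 3 counts allow, or left out where the IP was under it, the median in Ctrl IP was 1.81, and with the 2 in FLAG Input it was 3.98 in FLAG IP.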
